A study of Danio rerio with 3 samples.

Results

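The gene wnt16 encodes a secreted Wnt ligand, and its transcript was followed through single endothelial cells sorted from anal fins of young zebrafish. It is 1 gene of 25747 in the count tables and 1 of the 16029 with a transcript in some well. A unique molecular identifier (UMI) marks 1 captured transcript, and 245 of the 1036 wells on the authors' list of analysed wells held at least 1 wnt16 UMI. The gene was picked because it was higher in lymphatic-type than in blood-type wells of these same plates. That difference is therefore given as a description without a test. Wells were sorted into classes by lyve1a, a hyaluronan receptor gene of lymphatic endothelium, and aqp8a.1, a water channel gene that marked the blood-type wells, among wells of at least 500 UMIs.

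Wnt proteins receive a lipid from the acyltransferase Porcn, are carried to the cell surface by Wls and bind Frizzled receptors on nearby cells. Signalling then runs through β-catenin or through a planar polarity branch, which acts on cell shape and orientation. In zebrafish embryos, wnt16 is known for a role in the emergence of blood stem cells, upstream of the Notch ligand genes dlc and dld in somites. In mammals the gene is known for its effect on cortical bone. Lymphatic endothelium shares the receptor tyrosine kinase gene flt4 and the scavenger receptor genes mrc1a and stab1 with some veins.

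The series concerns specialised blood vessels that form from lymphatic vessels. All wells came from 1 group, anal fins of immature zebrafish at stage II-III, whose cells carried a dsRed reporter under fli1a, an ETS transcription factor gene of endothelium, and were sorted on it. Each plate of 384 wells drew on 80 fins, no strain is named, and the labels do not say whether plates came from separate fish. Libraries were made by MARS-seq, which tags the 3' ends of transcripts of single cells in plates. Plates are the replicates (n = 3). The p-values rest on a spread between plates that is estimated across many genes, so they measure a gene's own plates only in part. That spread may be technical.

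The plates held 559559, 481392 and 221176 UMIs, and median depth was 1064.5, 914.5 and 382 UMIs in the listed wells. At least 500 UMIs were found in 289, 271 and 112 listed wells. All 384 well barcodes were shared by the 3 plates. Of the 111 wnt16-positive wells of plate 1, 36.9% lay at a coordinate that was also positive in plate 2, against 24.5% of all wells of plate 2. The corresponding share for plates 1 and 3 was 18.9% against 15.6%, and for plates 2 and 3 it was 13.8% against 15.6%. In all, 67 coordinates were positive in more than 1 plate, and 115 of the 221 positive wells of at least 500 UMIs lay at them. Whether UMIs passed between wells of equal barcode was not tested, and the main results are given below with and without these positive wells.

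The level of wnt16 was nearly the same in the 3 plates, at 418, 447 and 457 UMIs per 1000000 UMIs (CPM), or 441 ± 20.1 (SD, n = 3). With 515 UMIs in listed wells it ranked 277th among all genes. Whether reads of a neighbouring gene, described below, add to the wnt16 row was not tested. The share of listed wells with a wnt16 UMI was 28.9%, 24.5% and 14.9%, with exact 95% binomial intervals of 24.4 to 33.7, 20.3 to 29.1 and 10.9 to 19.8, which cover counting error only. The share was lowest in plate 3, where the CPM was highest. Listed wells of at least 500 UMIs, thinned at random to 500, were positive in 17.3%, 15.13% and 17.0% of cases. These are 289, 271 and 112 wells, only a part of the listed wells. Whether depth accounts for the difference in share over all listed wells was not tested.

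Detection followed depth closely. Of listed wells under 100 UMIs 2.22% held a wnt16 UMI, of those with 500 to under 1000 UMIs 18.2%, and of those with 2000 or more 56.4%. A well without a wnt16 UMI is thus often a shallow well, and wnt16-negative does not mean that the cell lacked the transcript. In the band of 100 UMIs just above the minimum of 500, 14.8% of wells were positive, and in the band of 100 UMIs just below it 8.82%.

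**Figure D1:**
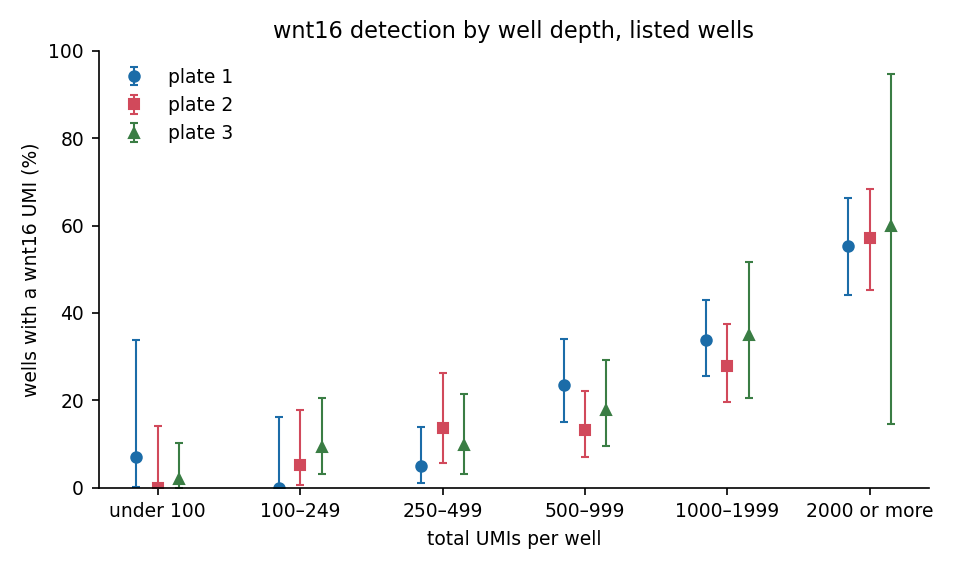
Share of listed wells with at least 1 wnt16 UMI (y axis, percent) by total UMIs per well (x axis), for each plate. Points are shares and bars exact 95% binomial intervals. The share climbs from a few percent under 250 UMIs to 55.4%, 57.1% and 60.0% at 2000 or more.

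Wells positive for lyve1a held the most wnt16. Classes were lyve1a-positive (at least 1 lyve1a UMI and fewer than 5 of aqp8a.1, 186 wells), aqp8a.1-high (at least 5 aqp8a.1 UMIs and none of lyve1a, 160 wells), both (99 wells) and neither (227 wells). In lyve1a-positive wells wnt16 stood at 656, 1020 and 628 CPM in plates 1, 2 and 3, or 768 ± 218 (SD, n = 3). In aqp8a.1-high wells it stood at 281, 168 and 99.7 CPM, or 183 ± 91.7. The plates of these classes did not overlap. Wells positive for both had 364, 217 and 269 CPM. Wells with neither had 289, 313 and 588 CPM. Levels of the wells with both markers overlapped with those of the aqp8a.1-high wells and of the wells with neither. The plate values of the lyve1a-positive wells lay above those of every other class, in plate 3 only narrowly. There the lyve1a-positive level rests on 17 UMIs, with a 95% interval of 366 to 1006 CPM. The level of wells with neither marker rests on 33 UMIs, with an interval of 405 to 826 CPM. In plate 3 these classes thus cannot be told apart beyond counting error.

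Shares of wells with a wnt16 UMI had the same order at its ends. A wnt16 UMI was found in 46 of 92, 36 of 67 and 11 of 27 lyve1a-positive wells, or 48.2% ± 6.69 (SD, n = 3). It was found in 21 of 69, 14 of 71 and 2 of 20 aqp8a.1-high wells, or 20.1% ± 10.2. With every well thinned to 500 UMIs, shares were 27.0% ± 1.17 and 8.33% ± 2.89. Shares in the wells with both or neither marker were 12.3% ± 2.29 and 14.2% ± 3.81 after thinning, which do not differ beyond their spread. Median depths were 1443.5 UMIs in lyve1a-positive and 1267 in aqp8a.1-high wells.

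The level was highest in lymphatic-type wells, but presence was not restricted to them. Of the 221 positive wells, 93 were lyve1a-positive, 59 had neither marker, 37 were aqp8a.1-high and 32 had both. Of the 16 wells with at least 5 UMIs of neutrophil markers, 6 (37.5%) held a wnt16 UMI at a median depth of 1681.5, or 1 of 16 (6.25%) after thinning. The 6 globin-rich wells held none, with an exact 95% interval of up to 45.9%. The thinned share of 8.33% in aqp8a.1-high wells cannot be set against that of the neutrophil-rich wells, which rests on 1 well. Free RNA or a second cell in such a well was not tested.

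**Figure D2:**
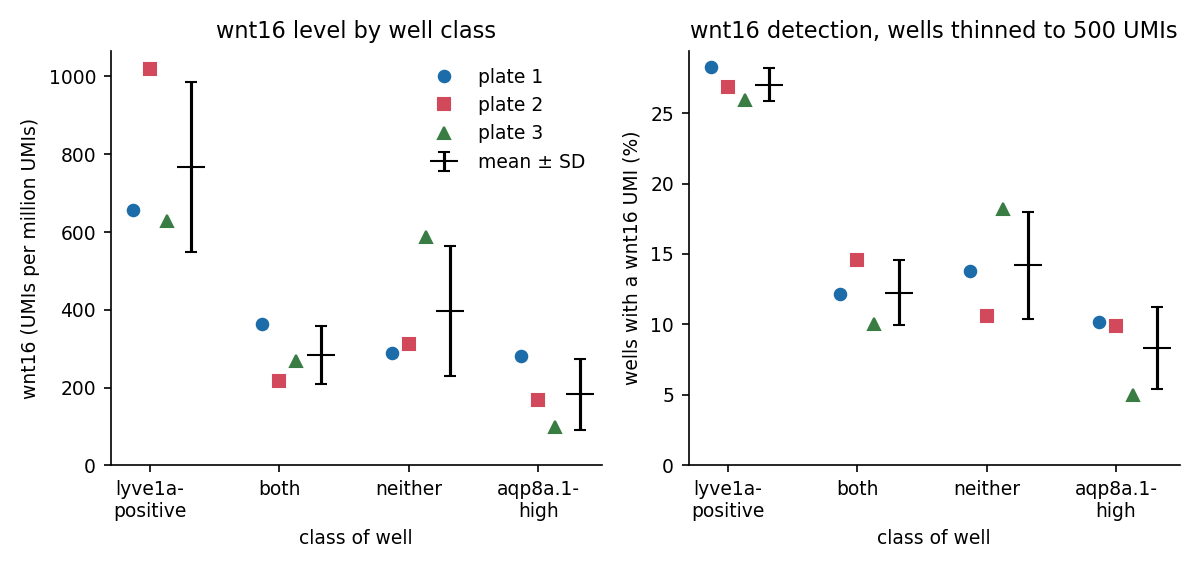
wnt16 in 4 classes of wells of at least 500 UMIs. Left, UMIs of wnt16 per 1000000 UMIs; right, percent of wells with a wnt16 UMI after thinning to 500 UMIs; points are plates, bars the mean ± SD of 3 plates. The lyve1a-positive points lie above all others in both panels. In the left panel the lyve1a-positive and neither points of plate 3 do not differ beyond counting error.

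Without the positive wells at shared coordinates, lyve1a-positive wells held 293, 540 and 519 CPM and aqp8a.1-high wells 149, 89.5 and 51.1 CPM. The difference in share fell from 28.1 to 21.4 percentage points. Taking positive wells out lowers every level by construction, and the plates of these classes still did not overlap.

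Along the lyve1a count the wnt16 level was higher from 3 lyve1a UMIs on. Mean levels over plates were 329 ± 115 CPM at 0, 358 ± 74.0 at 1 and 362 ± 141 at 2 lyve1a UMIs. They were 782 ± 62.1 CPM at 3 to 4 and 852 ± 203 at 5 or more. The first 3 bins do not differ beyond their spread, and neither do the last pair. The bin at 2 UMIs held only 3 wells of plate 3. Among wells with fewer than 5 aqp8a.1 UMIs the rise was gradual, at 359, 409, 682, 833 and 1112 CPM over the pooled plates, and plate 2 already stood at 980 CPM at 2 lyve1a UMIs. Shares of all wells with a wnt16 UMI climbed over the bins too, at 24.8%, 32.6%, 38.3%, 55.9% and 65.2% over the pooled plates. After thinning to 500 UMIs the pooled shares were 11.9%, 16.7%, 23.4%, 32.4% and 28.8%. The wells with 5 or more lyve1a UMIs were deep, with a median of 2717.5 UMIs against 1092 at 0. CPM is per UMI, but it rose with depth too. It was 309, 399 and 515 in listed wells of 500 to under 1000, 1000 to under 2000 and 2000 or more UMIs. How much of the rise along lyve1a goes with depth was not tested. At the edge of the class rule, 33.3% of wells with 1 lyve1a UMI and 26.0% of those with 0 were positive, both with fewer than 5 aqp8a.1 UMIs.

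Along the aqp8a.1 count the wnt16 level was lower from 5 aqp8a.1 UMIs on. Mean levels were 508 ± 76.3, 597 ± 79.9 and 752 ± 394 CPM at 0, 1 to 2 and 3 to 4 UMIs. They were 230 ± 163, 273 ± 120 and 160 ± 148 CPM at 5 to 9, 10 to 19 and 20 or more. The high SD at 3 to 4 UMIs comes from plate 2, at 1204 CPM in 19 wells. At the edge of this rule, among wells without lyve1a, 26.9% of wells with 5 to 6 and 29.7% with 3 to 4 aqp8a.1 UMIs were positive.

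**Figure D3:**
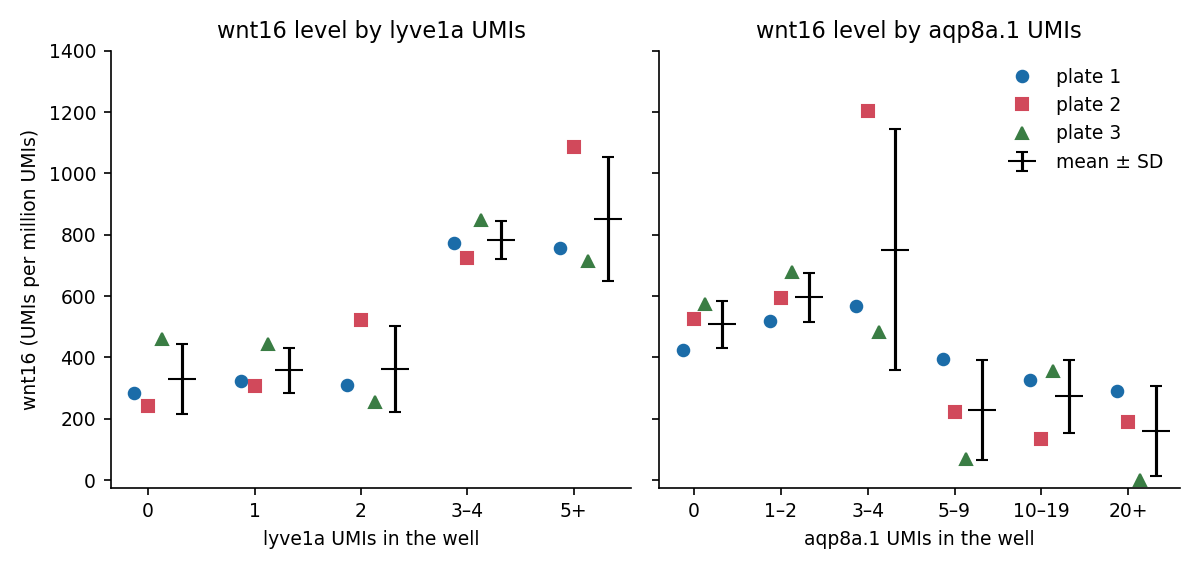
wnt16 level (y axis, UMIs per 1000000 UMIs) by lyve1a UMIs (left) and aqp8a.1 UMIs (right) of the well. Points are plates and bars the mean ± SD of 3 plates. On the left all points from 3 lyve1a UMIs on lie at 714 CPM or more, and on the right the means lie at 273 CPM or less from 5 aqp8a.1 UMIs on.

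A few wells held much of the transcript. A single UMI was found in 142 of the 245 positive wells (58.0%), and 33 wells with at least 4 UMIs held 213 of the 515 UMIs (41.4%). These 33 wells were deep, with a median of 3267 UMIs, and 23 of them were lyve1a-positive. Among them 30 held flt4, 30 the chemokine gene cxcl12a, 27 mrc1a, 25 stab1 and 24 tbx1, a T-box transcription factor gene, while 6 held prox1a, the lymphatic homeobox gene. The water channel gene aqp1a.1 was found in 4 of them and the VEGF receptor gene kdrl in 14. Such counts grow with depth, and no wnt16-negative wells of like depth were set beside these 33 wells. Between all positive and depth-matched negative wells, described below, tbx1 did not pass (log2 fold change 0.17, adjusted p = 0.84 by edgeR). The highest well, in plate 2, held 20 wnt16, 22 lyve1a and 4 aqp8a.1 UMIs. The next, in plate 1, held 15 wnt16 UMIs with 48 of aqp8a.1 and 3 of lyve1a in 9149 UMIs, and whether it held a second cell was not tested. Of the 33 wells 27 held a lyve1a UMI, 5 had neither marker and 1 was aqp8a.1-high. At least 4 wnt16 UMIs were thus found mostly, but not only, in wells with lyve1a.

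Divided by other markers, wells with a UMI of the lymphatic genes mrc1a, lyve1b or prox1a had more wnt16. Those with the adherens junction gene cdh5 had less. The level was 957 ± 194 CPM in the 148 wells with mrc1a and 287 ± 64.1 in those without (SD, n = 3 plates). It was 1380 ± 404 CPM in the 35 wells with lyve1b, the paralogue of lyve1a, of which 80.0% were wnt16-positive, and 382 ± 17.0 in the rest. For prox1a the levels were 829 ± 180 and 413 ± 27.7 CPM. For cdh5 they were 191 ± 90.5 CPM in the 200 wells with it and 560 ± 66.9 without. For these 4 genes the plates of wells with and without did not overlap. For esm1 and dll4, genes of sprouting and arterial endothelium, they did, at 504 ± 76.1 against 440 ± 33.9 and 479 ± 99.5 against 443 ± 35.6 CPM. For tbx1, which is also on the list of lymphatic markers, they did too, at 471 ± 124 against 385 ± 130. The share of all genes whose plates separate in this way is not given. Wells with a UMI of any gene are deeper than wells without, which CPM takes into account only in part.

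Genes that accompanied wnt16 were sought by setting each positive well of at least 500 UMIs beside up to 2 wnt16-negative wells of the same plate and similar depth. This set 103, 81 and 27 positive against 163, 125 and 48 negative wells, each used in 1 match only. Median depths of the wells summed were 1766 against 1343, 1990 against 1501 and 1055 against 965 UMIs, so the positive wells stayed deeper. Taking for each positive well the mean depth of its own matches, as the shares of wells further on do, the medians were 1766 against 1558, 1990 against 1768.5 and 1055 against 1062 UMIs. Summed UMIs were compared across the 3 plates with edgeR's quasi-likelihood test, plate as a block and Benjamini-Hochberg adjustment. At an adjusted p under 0.05, 110 of 3098 genes differed (3.55%), of which 37 were higher (1.19%) and 73 lower (2.36%) in wnt16-positive wells. The count was 25 without plate 1, 19 without plate 2, 19 with DESeq2, 25 without the plate block and 34 with wells thinned to 500 UMIs. It was 32 when wells were also matched by class. Otherwise the arms were not balanced for class, and wnt16 was chosen on a class difference. Of the genes tested in both, 24 of 34 higher and 31 of 56 lower genes were also called between lyve1a-positive and aqp8a.1-high wells. For these genes a link to wnt16 cannot be told apart from class here. Among them are mrc1a, cxcl12a, cdh5 and epas1b, described below. Between these classes their log2 fold changes were 2.74, 3.26, -2.24 and -2.52 by edgeR. Since the test shares its estimate of spread across genes, a small p here rests little on the spread of that gene's own 3 plates. An exact permutation over 3 plates cannot go below a two-sided p of 0.25.

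Clearest among the higher genes were the mannose receptor gene mrc1a and the chemokine gene cxcl12a, whose product is the ligand of Cxcr4. mrc1a stood at 577, 516 and 535 CPM in positive wells of plates 1, 2 and 3 and at 164, 150 and 205 CPM in matched negative wells, a log2 fold change of 1.68 (SE 0.21, adjusted p = 1.9e-12 by edgeR). cxcl12a stood at 973, 867 and 818 CPM against 346, 313 and 185 CPM, a log2 fold change of 1.49 (SE 0.18, adjusted p = 3.6e-14 by edgeR). For both genes every plate's positive wells lay above every plate's negative wells. The share of all genes that separate in this way is not given. When negative wells were also matched by class, the log2 fold changes of mrc1a and cxcl12a were 1.48 and 1.16 (adjusted p = 6.1e-05 and 0.00016 by edgeR). This compared lyve1a-positive with lyve1a-positive wells by the class thresholds alone. Among wells with fewer than 5 aqp8a.1 UMIs, wnt16 rose from 409 CPM at 1 lyve1a UMI to 1112 at 5 or more (pooled plates). Differences within a class were thus not balanced. Without positive wells at shared coordinates the log2 fold changes of mrc1a and cxcl12a were 1.28 and 1.06 (both adjusted p = 0.019 by edgeR). That fit kept every negative well and set 50, 39 and 13 positive against 163, 125 and 48 negative wells. Median depth in plate 2 was 2203 against 1501 UMIs. Whether genes that did not pass there missed it for lack of wells was not tested. Both genes passed in all 16 alternatives in which they were tested.

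Among the other named higher genes, lgmn, which encodes the lysosomal protease legumain, stood at 392, 459 and 818 against 138, 243 and 246 CPM (log2 fold change 1.21, SE 0.21, adjusted p = 1.7e-06 by edgeR). ctsla, a cathepsin L gene, differed by 0.89 on the log2 scale and hapln3, a hyaluronan link protein gene, by 1.70. snx5 and rab11bb, genes of endosomal sorting and recycling, differed by 1.37 and 1.18. lgmn, ctsla, hapln3, snx5 and rab11bb did not pass without positive wells at shared coordinates. hapln3, snx5 and rab11bb also failed without plate 1 and without plate 2, with adjusted p = 0.58 and 0.061 by edgeR for hapln3.

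Other higher genes were gpr182, an atypical chemokine receptor gene of endothelium, foxp4, a forkhead factor gene, pfkfb3, a regulator of glycolysis, and cldn11a, a claudin gene. Their log2 fold changes were 1.23, 2.05, 1.60 and 1.80. foxp4 stood at 140, 176 and 157 CPM against 29.8, 46.8 and 20.5. tnfaip2b stood at 690, 561 and 1006 against 290, 206 and 492 CPM (a fold change of 2.29) and passed in all 16 alternatives. The row TMEM179B differed by 1.72 on the log2 scale. gpr182 and foxp4 did not pass without plate 1 or without plate 2, pfkfb3 and TMEM179B not without plate 2, and cldn11a not without plate 1. gpr182, pfkfb3 and TMEM179B did not pass without positive wells at shared coordinates either. The row myhz1.3, named for a fast muscle myosin, stood at 595, 776 and 943 against 309, 224 and 369 CPM. It has close copies among myosin genes that the counting could not be shown to separate, and skeletal muscle markers summed to 626, 130 and 94.3 CPM in positive and 134, 145 and 144 CPM in negative wells. It missed the threshold without plate 2 (adjusted p = 0.050 by edgeR).

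The largest difference among higher genes belonged to the row si:dkey-207j16.3, with 35 UMIs in positive and 2 in matched negative wells. Over all listed wells it held 41 UMIs in 35 wells, and 33 of these 35 wells held wnt16. By plate this was 18 of 19, 10 of 10 and 5 of 6 wells. In RefSeq on the assembly GRCz12tu, the next gene after wnt16 is stab2, whose synonym si:dkey-207j16.6 comes from the same clone. The row itself has no entry there, and its position in the authors' build was not used here. Whether it overlaps wnt16 and shares reads with it was not tested, so this row is reported as uncertain. The count tables hold no row for stab2. Whether reads of stab2 were counted under wnt16 was not tested either. The other neighbours with a row gave few UMIs or 0: cped1 5, tspan12 16, ing3 76 and si:dkey-207j16.5, of the same clone, 0. Of the wells with cped1 3 of 5 held wnt16, of those with tspan12 11 of 14 (78.6%), and of those with ing3 25 of 67 (37.3%). Of all listed wells 23.6% held wnt16. Whether these rows share reads with wnt16 was not tested.

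**Figure D4:**
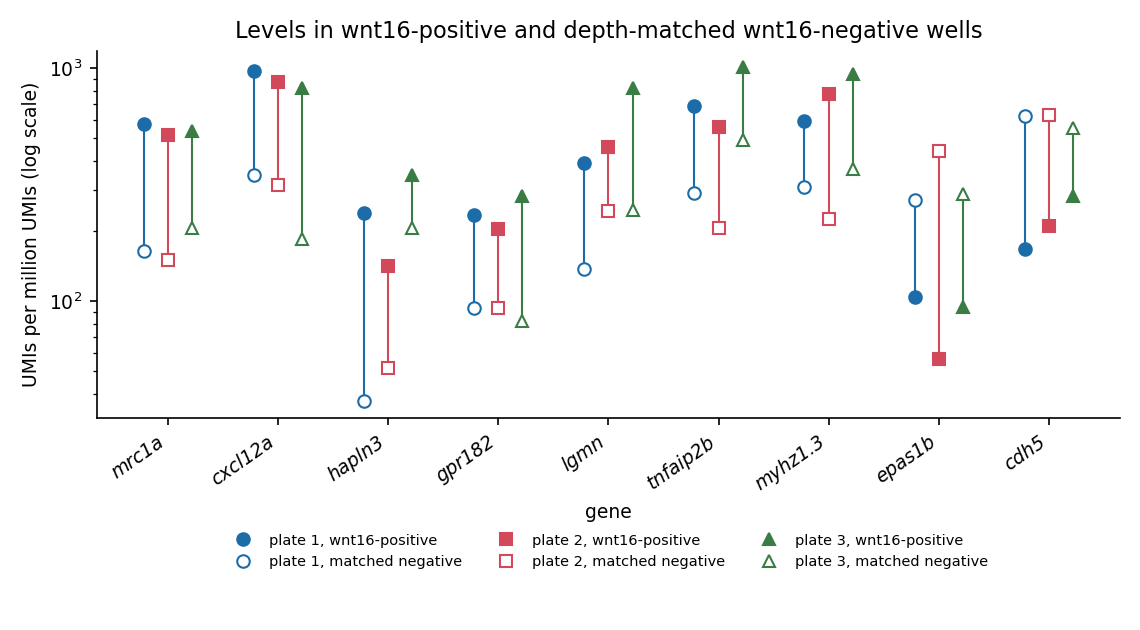
Level of 9 genes (y axis, UMIs per 1000000 UMIs, log scale) in wnt16-positive wells (filled) and depth-matched wnt16-negative wells (open), joined within each plate. The first 7 genes lie higher and epas1b and cdh5 lower in positive wells of all 3 plates.

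Among the named lower genes, cdh5, which encodes VE-cadherin, stood at 167, 210 and 283 against 625, 631 and 554 CPM, a log2 fold change of -1.71 (SE 0.21, adjusted p = 4.6e-14 by edgeR), and passed in all 16 alternatives. epas1b, a hypoxia-inducible factor gene, stood at 104, 56.7 and 94.3 against 272, 440 and 287 CPM (log2 fold change -2.07, adjusted p = 4.0e-11 by edgeR). Without plate 2 it did not pass (-1.49, adjusted p = 0.063 by edgeR). rbp7b, a retinoid-binding protein gene, stood at 27.0, 56.7 and 0 against 122.8, 131 and 61.5 CPM. For cdh5 and epas1b no plate's positive wells reached any plate's negative wells, and the share of all genes that separate so is not given.

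Most of the other lower genes with large differences belong to blood cells. The globin genes hbae1 and hbz fell by 4.16 and 3.46 on the log2 scale, and hbz stood at 856 CPM in negative wells of plate 2 alone. Neutrophil and leukocyte genes included mpx (-3.56), mmp13a (-2.86), coro1a (-3.14), il1b (-2.50), cxcr4b (-2.37) and ctssb.1 (-2.38). ANPEP had 0 UMIs in positive and 38 in negative wells, at least 10.3-fold lower against a floor of 3 counts over the group. The rows si:ch211-161c3.6, si:ch211-214p16.1 and C13H10orf54 were also lower, at 2, 9 and 5 against 33, 48 and 33 UMIs. Of the neutrophil list 7 of 8 tested genes were lower, but summed levels were 532, 323 and 723 against 1746, 360 and 4923 CPM, nearly equal in plate 2. Without the wells rich in neutrophil or globin UMIs 97 genes differed, 88 of them among the 110, and mmp13a turned to 0.94 (adjusted p = 0.78 by edgeR). Macrophage markers summed to 22.5, 11.3 and 62.9 against 22.3, 74.8 and 1087 CPM.

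The marker lists are given as a description, since wnt16 was chosen on a lymphatic difference, and their counts stand beside 1.19% higher and 2.36% lower over all genes. Of 12 lymphatic markers tested 6 were higher and 0 lower (lyve1a, lyve1b, mrc1a, stab1, flt4 and nrp2a), with a median log2 fold change of 0.94 against -0.03 over all genes. lyve1b, with 31 against 8 UMIs, passed in only 4 of 11 alternatives. Of 9 blood endothelial markers 6 were lower and 0 higher, with a median of -1.09. aqp8a.1 stood at 3961, 4493 and 2075 against 7163, 8294 and 6030 CPM, so wnt16-positive wells kept a sizeable level of it. prox1a stood at 81.1, 85.0 and 188.7 against 26.1, 42.1 and 20.5 CPM and did not pass (adjusted p = 0.087 by edgeR). tbx1 stood at 527, 470 and 315 against 380, 435 and 410 CPM and did not pass either. Of 11 pan-endothelial genes cdh5 and clec14a were lower, and the list summed to 4038, 4034 and 5000 against 5041, 5404 and 4410 CPM, which overlap. Of 10 cycling genes 0 differed, with a median log2 fold change of 0.33. Of 11 dissociation stress genes fosab was lower, and of 4 keratinocyte genes krt4 was lower, counts too small to be read against the share over all genes.

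Among wells with fewer than 5 aqp8a.1 UMIs, fewer genes could be tested. There 70, 42 and 24 positive wells were set against 103, 61 and 40 negative wells, and 42 of 1239 genes differed (3.39%), 25 higher (2.02%) and 17 lower (1.37%) by edgeR. In plate 2 only 42 of 57 positive wells found a match, and the deepest kept held 3322 UMIs, against 6862 without matching. Median depths of the wells summed were 1657 against 1246, 1603.5 against 1213 and 1138.5 against 954 UMIs, so the positive wells stayed deeper. The wells compared here are part of the comparison above. Of the genes tested in both, 22 of the 34 higher and 15 of the 52 lower genes of that comparison were called here too, out of 25 and 17. mrc1a stood at 814, 805 and 616 against 174, 226 and 322 CPM, a log2 fold change of 1.77 (SE 0.27, adjusted p = 0.00017 by edgeR). hapln3 and pfkfb3 differed by 2.03 and 2.11, lgmn by 1.45 and myhz1.3 by 1.43. Further higher genes were arl4aa, si:ch73-138n13.1 and tspan18b, a tetraspanin gene, at 1.72, 1.48 and 1.43.

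Lower there were hopx, a homeodomain-only gene, at 133, 109 and 109 against 354, 334 and 371 CPM (log2 fold change -1.56, SE 0.33, adjusted p = 0.0048 by edgeR), cfd, the complement factor D gene (-1.53), and jam2a, a junctional adhesion gene (-1.27). The rows si:dkey-262k9.2, si:ch211-161c3.6 and arpc1b and the genes ctssb.1 and mmp13a completed the 8, at -2.15, -4.34, -1.63, -2.63 and -3.43. Neutrophil markers summed to 592, 232 and 798 against 2761, 441 and 6091 CPM, and macrophage markers to 29.6, 27.3 and 36.3 against 38.6, 155 and 1288 CPM. Without the wells rich in neutrophil or globin UMIs, 15 genes were higher and 9 lower, and 23 of these 24 were among the 42. hopx, cfd, jam2a, si:dkey-262k9.2 and si:ch211-161c3.6 still passed, arpc1b did not (-1.24, adjusted p = 0.23 by edgeR), and mmp13a and ctssb.1 were not tested there. Of 5 blood endothelial markers only cxcr4a was lower, and of 11 lymphatic markers lyve1a, mrc1a and flt4 were higher. The count rests on few wells: without plate 1, 2 or 3 it was 23, 5 or 8 genes, and mrc1a did not pass without plate 2 (adjusted p = 0.14 by edgeR).

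Likeness of pattern was measured as the difference in the share of wells with a UMI, positive minus matched negative wells, averaged over plates. Among 3272 genes found in at least 5% of wells the median difference was 1.38 percentage points, with 678 genes higher and 259 lower in all plates. The gene most like wnt16 was ctsla, at 30.3 points, followed by cxcl12a at 27.0, flt4 at 26.0, lgmn at 23.9 and the cadherin gene cdh6 at 21.98. For cxcl12a the shares were 53.4%, 51.9% and 51.9% against 29.1%, 30.2% and 16.7%. The value of ctsla rests on plate 3, where 85.2% of positive and 20.4% of negative wells held it. Next came myhz1.3, the row si:ch211-152c2.3, tnfaip2b, gpr182 and marcksl1b, between 21.9 and 19.4 points.

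The least alike were cdh5, epas1b, hopx, mcl1b, an anti-apoptotic gene, and jam2a, at -18.7, -16.1, -14.9, -13.3 and -12.0 points. cdh5 was found in 18.4%, 21.0% and 7.41% of positive against 36.4%, 40.7% and 25.9% of negative wells. cdh6 was present in 86.3% of positive and 64.3% of negative wells on average, yet its summed level did not pass (log2 fold change 0.38, adjusted p = 0.095 by edgeR).

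**Figure D5:**
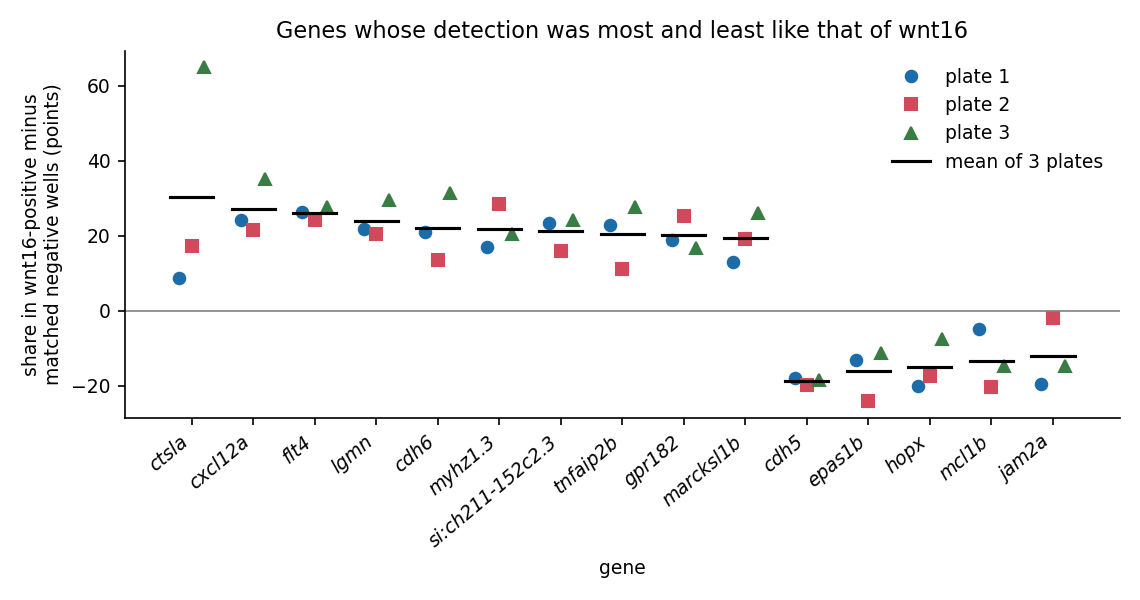
Difference in the share of wells with a UMI between wnt16-positive and depth-matched negative wells (y axis, percentage points) for the 10 most and the 5 least alike genes. Points are plates and bars their mean. Points of cdh5 lie close together near -18.7, while those of ctsla range up to 64.8 in plate 3.

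Among Wnt ligand rows, that of wnt16 stood alone in UMIs. Whether reads of its neighbour stab2, which has no row, add to it was not tested. The other 23 ligand rows held 32 UMIs in listed wells together, in 12 of the rows, and the highest, wnt4b, held 9, against 515 for wnt16. Both counts are 3' UMIs, which do not grow with transcript length. None of the other ligands passed the expression filter. The carrier gene wls held 215 UMIs in 167 wells, at 189, 191 and 118 CPM. In wnt16-positive wells wls stood at 248, 187 and 126 CPM and in matched negative wells at 156, 192 and 144 CPM, groups that overlap (log2 fold change 0.24, SE 0.27, adjusted p = 0.84 by edgeR).

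Most other pathway rows were too low to be tested, and 0 of those tested passed, which for so few genes is near the 3.55% called over all genes. Some listed genes had no row and were not measured, among them fzd1, fzd4, fzd6 and fzd10. The highest Frizzled row, fzd2, held 26 UMIs in listed wells, porcn 1 and the β-catenin gene ctnnb1 0. Of receptors and co-receptors 3 of 23 rows could be tested, and 0 passed: lrp5, a Frizzled co-receptor gene, reck and adgra2, which together serve Wnt7 reception, had log2 fold changes of 0.18, 0.33 and -0.06. At an unadjusted p under 0.05, 360 of the 3098 genes differed by edgeR, and DESeq2 called 19 genes in all. Of 12 signal transduction genes tested, out of 29 rows, 0 passed. The planar polarity cadherin genes celsr1b and celsr1a had the largest values, at 1.61 and 1.38 (adjusted p = 0.11 and 0.13 by edgeR). celsr1b stood at 58.6, 102 and 94.3 CPM in positive and 22.3, 28.1 and 20.5 CPM in negative wells. These levels rest on 34 and 13 UMIs, and the gene did not pass. The small GTPase gene rac1a had a log2 fold change of 0.02. The degradation complex genes apc, gsk3b, gsk3ab and csnk1a1 lay between -0.50 and 0.15, and daam1a, vangl2 and prickle1b at -0.83, -0.15 and -1.03.

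Of 6 genes tested on a list of β-catenin targets and transcription factors of the pathway, out of 15 rows, 0 passed. Their median log2 fold change was -0.37. The target genes mycb, ccnd1 and fosl1a had -0.56, 0.76 and -0.74, and the pathway's factor genes tcf7l1a, tcf7l1b and tcf7l2 had -0.70, -0.18 and 0.23. The widely used reporter genes of the pathway were near the detection limit, with 6 UMIs of axin2 and 8 of lef1 in all listed wells. The receptor row ryk, with 32 UMIs, was too low to be tested. The 6 genes tested thus gave no difference that passed, and a response in axin2 or lef1 was not detectable at this depth.

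Between lyve1a-positive and aqp8a.1-high wells 144 of 1841 genes differed (7.82%) by edgeR, with 62 higher (3.37%) and 82 lower (4.45%). The count was 78 without plate 1, 35 without plate 2, 39 with DESeq2 and 32 with aqp8a.1 at least 3 UMIs. Wnt list members tested, wnt16 aside, were 10 signal transduction, 2 receptor or co-receptor, 2 β-catenin list and 1 secretion genes. Of these celsr1b alone passed (log2 fold change 2.26, SE 0.76, adjusted p = 0.043 by edgeR). It stood at 61.2, 112 and 111 CPM in lyve1a-positive and 17.0, 19.8 and 0 CPM in aqp8a.1-high wells. It passed in 3 of the 6 alternatives in which it was tested. For so few genes, 1 call is near the 7.82% called over all genes. wls had a log2 fold change of 0.51 (adjusted p = 0.59).

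Notch genes were followed because of the embryonic link between wnt16 and dlc and dld. dlc held 61 and dld 13 UMIs in all listed wells, so neither could be compared well: dlc had a log2 fold change of -0.88 in wnt16-positive wells (adjusted p = 0.61 by edgeR) and dld was under the filter, with 8 UMIs in positive and 4 in negative wells. Of 9 Notch genes tested, the receptor gene notch1b was lower, at 49.6, 68.0 and 220.1 against 127, 220 and 144 CPM (log2 fold change -1.23, SE 0.36, adjusted p = 0.020). Its plates overlap, since plate 3 ran the other way. Between lyve1a-positive and aqp8a.1-high wells 3 of 8 Notch genes tested were lower, beside 4.45% lower over all genes. They were dll4, notch1b and the target gene hey1, at -0.95, -1.47 and -1.97 on the log2 scale. That comparison does not turn on wnt16.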

How the data were processed

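The authors deposited UMI counts per gene and well for 3 plates, without normalization, per the file headers. GRCz10 and Bowtie2 are named in the submitters' processing notes; for annotation, strand setting and UMI collapsing the notes name nothing. The gene wnt16, the gene lists and the tests were chosen with earlier results of these data known.

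Wells on the authors' list with at least 500 UMIs were used, except where all listed wells are named. Spike-in rows were left out. Each wnt16-positive well took up to 2 negative wells of its plate within a depth ratio of 1.25 (seed 1 for thinning). UMIs were summed per plate and arm. edgeR 4.0.16 under R 4.3.3 gave the quasi-likelihood F-test after TMM scaling and its default filter, plate as a block because both arms come from 1 plate; DESeq2 1.42.0 was an alternative. Test code was tested on simulated data. Genes named are the 15 (or 8, with fewer than 5 aqp8a.1 UMIs) called genes of largest change each way with 1 sign in all plates, the 10 most and 5 least alike, and Wnt list members with at least 30 UMIs, of which 2 are counted but not reported here. flt4, stab1, lyve1a, notch1b, prox1a and other list members are named from their lists. Coordinates and sequences are not printed, since the reference table follows another assembly.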

Additional observations from a re-analysis of the deposited data

Results flagged for a closer look

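Wells of plate 3 off the authors' list, which enter no comparison, held wnt16 too. Of these 116 wells 20 were positive, or 17.2% (exact 95% interval 10.9 to 25.4), at 417 CPM and a median depth of 296.5 UMIs. The listed wells of the same plate were positive in 14.9% of cases, at 457 CPM and a median depth of 382 UMIs.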

How the results depend on the processing

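Counts of genes between wnt16-positive and matched wells (110) fell to 19 with DESeq2, 70 without an expression filter, 25 without the plate block, 72 in wells of at least 1000 UMIs, 34 after thinning, 66 with at least 2 wnt16 UMIs and 41 with 1 matched well. They fell to 32 when matched within classes and to 35 without positive wells at shared coordinates (both chosen after seeing the data), of which 32 and 33 were among the 110. Leaving out a plate gave 19 to 137. With fewer than 5 aqp8a.1 UMIs (42 genes), the counts were 9 with DESeq2, 7 without the plate block, 18 in wells of at least 1000 UMIs, 21 after thinning, 24 without neutrophil- or globin-rich wells, 26 without positive wells at shared coordinates, and 5 to 23 without a plate. Between lyve1a-positive and aqp8a.1-high wells (144 genes) they were 39 with DESeq2, 79 without a filter, 89 in wells of at least 1000 UMIs, 53 after thinning, 32 with aqp8a.1 at least 3, 75 with double-positive wells counted as aqp8a.1-high, 109 without the plate block, and 35 to 154 without a plate. Fewer genes or wells enter several of these fits; otherwise the cause was not tested. The difference in wnt16 share (28.1 points) was 37.4 with at least 2 lyve1a UMIs and 18.7 after thinning, and 25.2 to 32.4 without a plate. The share of listed wells (22.8%) was 31.4% in wells of at least 500 UMIs, and 19.7% to 26.7% without a plate. Over the 30 named genes called in the first comparison, 291 of 380 values kept their side, 88 did not pass, and mmp13a reversed without neutrophil- or globin-rich wells (0.94). Over the 16 of the second, 133 of 206 kept their side and 73 did not pass. Depth limits the low genes: wnt16 itself is mostly 1 UMI per positive well.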
